A study of Saccharomyces cerevisiae with 6 samples.

Results

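Yeast takes up amino acids through a family of plasma membrane permeases and ammonium through the Mep transporters. The 10 genes described here are GAP1, AGP1, BAP2, BAP3, TAT1, TAT2, GNP1, HIP1, CAN1 and MEP2. They were chosen by symbol in the platform annotation, and all 10 were found among the 5656 genes measured, each with 1 probe set, the group of oligonucleotides that reports 1 transcript. RNA came from Saccharomyces cerevisiae strain Y117, with wild-type histone H2B, and strain Y118, in which the mutation K123R replaces with arginine the H2B lysine that carries monoubiquitin. Both strains were diluted from early stationary phase to an optical density of 0.3 in 150 ml of the rich medium YPD and shaken for 7 hours at 30 degrees until the density reached 2, with 3 cultures each and 1 Affymetrix S98 array per culture. No other allele of either strain is given in the sources used here, so any further difference between the strains cannot be told apart from the mutation. Nothing says whether the 3 cultures began from separate colonies, and p-values measure only the spread between them.

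Permease genes in yeast follow the nitrogen supply through a pair of well-known circuits. Amino acids outside the cell are sensed by the Ssy1-Ptr3-Ssy5 complex of the plasma membrane, which activates the transcription factors Stp1 and Stp2, and these turn on AGP1, GNP1, BAP2, BAP3, TAT1 and TAT2. Nitrogen catabolite repression works the other way: when good nitrogen sources such as glutamine are plentiful, the GATA activators Gln3 and Gat1 are held back and genes such as GAP1 and MEP2 stay low. HIP1 and CAN1 are usually counted with the more constitutive permeases.

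The array of H2B K123R replicate 1 differed from the rest before any comparison. Its log2 signals correlated with the other mutant arrays at 0.958 and 0.969, against 0.991 between those arrays and 0.992 to 0.995 among wild-type arrays. The ratio of 3' to 5' control signal for actin (YFL039C) was 1.98 on it and 1.40 to 1.59 elsewhere, and for YER022W 4.87 against 2.23 to 3.50. For the control YER148W its ratio was the lowest of the 6 arrays, 2.26 against 2.33 to 2.70. Calls of the genes and lists below are therefore also given without this array where leaving it out changes them. Summed signals of 5 markers of mating type a were 12442 to 13207 in wild type and 10211 to 11102 in H2B K123R, and those of 4 markers of mating type alpha were 263 to 298 and 371 to 444. The part of this difference in the results was not tested.

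The question was which permease genes changed in RNA level when H2B K123R replaced wild-type H2B in cells growing in rich medium. GAP1 rose 2.03-fold in the mutant and GNP1 fell 1.30-fold, and the other 8 genes did not pass the test on all 6 arrays. AGP1 was above every wild-type culture on 2 of the 3 mutant arrays and passed when replicate 1 was left out. Thus 1 of 10 genes rose and 1 of 10 fell at an adjusted p under 0.05 (limma, Benjamini-Hochberg over all probe sets). Over all 5656 genes, each counted by its brightest probe set, 6.06% rose and 2.92% fell. Over all 9275 probe sets, 4.22% rose, 2.47% fell and 6.68% passed in either direction. The median log2 difference over the 10 genes was -0.14, beside 0.08 over all genes, with 4 differences positive and 6 negative. The mutant and wild-type arrays did not overlap for GAP1, which was higher, or for GNP1, TAT2 and HIP1, which were lower. Of all 5656 genes, 1442 had mutant values entirely above and 782 entirely below the wild-type values. Over all probe sets, 32.5% did not overlap: 19.0% had mutant values entirely above and 13.5% entirely below the wild-type values.

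**Figure D1:**
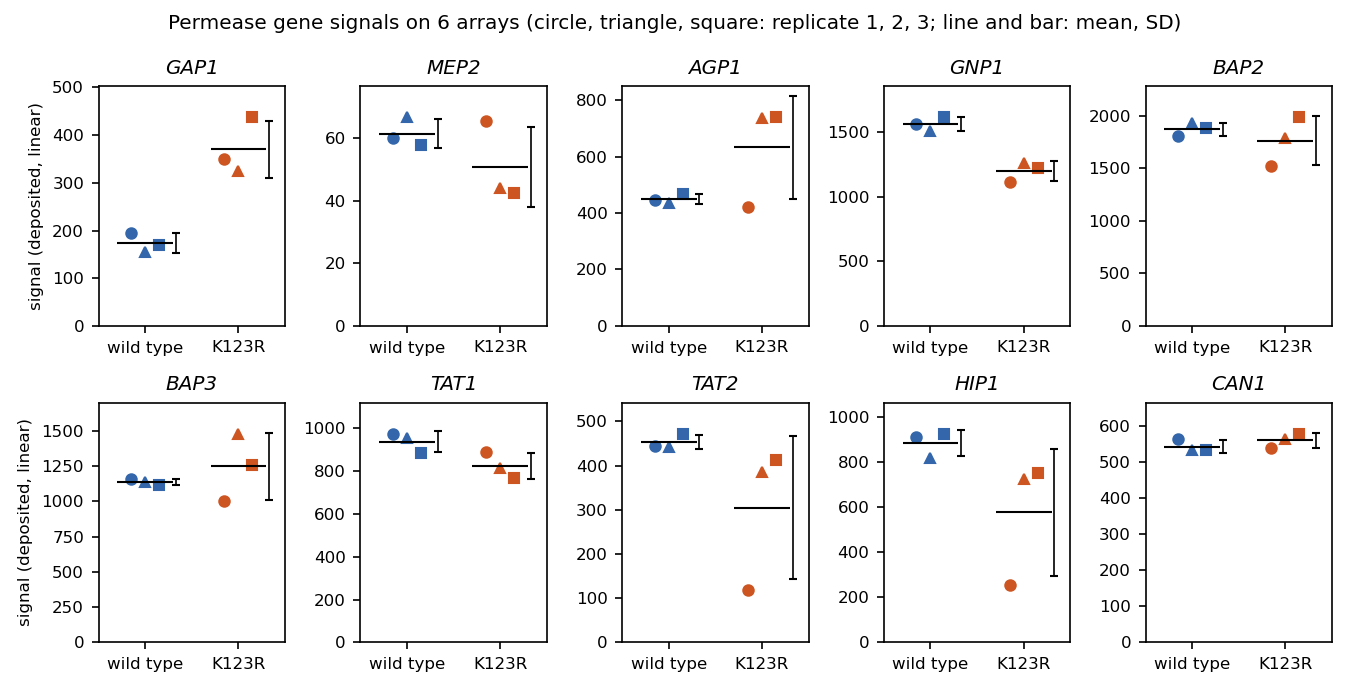
Deposited signal (linear scale, y axes from 0 and scaled to each gene) of the 10 permease genes in 3 wild-type (blue) and 3 H2B K123R (orange) cultures; symbols mark replicates 1 to 3, lines the means and bars the SD. GAP1 lies higher on all 3 mutant arrays, GNP1 lower on all 3, and for TAT2, HIP1 and AGP1 the mutant replicate 1 lies far below the other mutant arrays.

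GAP1 encodes the general amino acid permease, a broad-range transporter known for being produced when the nitrogen source is poor. Its signal was 195, 155 and 170 in wild-type replicates 1, 2 and 3 and 350, 324 and 437 in the H2B K123R replicates. Every mutant culture was above every wild-type culture, and the lowest mutant value was well above the highest wild-type value. On the log2(signal + 16) scale, on which all folds here are given and which understates the change of dim genes, the difference was 1.02 ± 0.15 (SE), a rise of 2.03-fold (173 ± 20.5 to 371 ± 59.4, mean ± SD, n = 3 each; limma adjusted p = 0.0180). The rise was as large without the array of replicate 1 (log2 difference 1.06, limma adjusted p = 0.0165). With the replicate number as a block in the test, GAP1 still passed (limma adjusted p = 0.0445). When wild-type replicate 1, 2 or 3 or mutant replicate 3 was left out, the adjusted p rose to 0.0716, 0.0911, 0.103 and 0.0617, with log2 differences of 1.11, 0.95, 1.01 and 0.90.

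MEP2, the high-affinity ammonium permease that also acts as an ammonium sensor for filamentous growth, is likewise known as a gene under nitrogen catabolite repression. It read 60.1, 66.7 and 57.8 in wild type and 65.6, 44.2 and 42.5 in H2B K123R. Mutant replicates 2 and 3 were below all wild-type cultures while replicate 1 was within their range. The log2 difference of -0.23 ± 0.17 did not pass (limma adjusted p = 0.439, 95% confidence interval -0.63 to 0.17). Without replicate 1 the difference was -0.38 (adjusted p = 0.0891). The differences of GAP1 and MEP2 had opposite signs in both fits.

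Among the 6 genes under the amino acid sensor, GNP1 fell. GNP1 encodes a permease for glutamine and several other amino acids, and read 1561, 1511 and 1613 in wild type against 1111, 1262 and 1223 in H2B K123R. All mutant values were below all wild-type values, and the spread within each group was small beside the gap. The mean went from 1562 ± 51.1 to 1198 ± 78.4 (n = 3 each), a log2 difference of -0.38 ± 0.08 and a fall of 1.30-fold (limma adjusted p = 0.0394). Without mutant replicate 1 the log2 difference was -0.33 (adjusted p = 0.0297). With the replicate number as a block in the test, GNP1 did not pass (limma adjusted p = 0.0720). Without a variance trend in the test the adjusted p was 0.0617, and leaving out wild-type replicate 1, 2 or 3 or mutant replicate 3 gave an adjusted p of 0.133, 0.140, 0.175 and 0.101.

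AGP1, the paralogue of GNP1, encodes a low-affinity permease for a broad range of amino acids. Its wild-type signals were 445, 434 and 468, and its mutant signals 421, 738 and 739. The mutant cultures split, with replicates 2 and 3 well above wild type and replicate 1 just below it. On all arrays the log2 difference was 0.44 ± 0.22 and did not pass (limma adjusted p = 0.271). Without replicate 1, AGP1 passed with a log2 difference of 0.70 ± 0.07, or 1.62-fold (adjusted p = 0.00885). In that fit GAP1, AGP1 and GNP1 were the 3 of the 10 genes that passed. Over all genes 8.26% rose and 6.10% fell in it, and over all probe sets 5.83% and 5.20%.

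BAP2 and BAP3 encode permeases for branched-chain amino acids. BAP2 read 1802, 1926 and 1878 in wild type and 1516, 1783 and 1983 in H2B K123R. The groups overlapped, with the lowest value on mutant replicate 1. The log2 difference was -0.09 (95% confidence interval -0.35 to 0.16), its sign turned to 0.0095 without replicate 1, and it did not pass (limma adjusted p = 0.629). BAP3 read 1159, 1139 and 1119 in wild type and 1005, 1480 and 1260 in the mutant. Its mutant values lay on both sides of the wild-type values, with replicate 1 lowest. The log2 difference of 0.11 (-0.22 to 0.45) did not pass (adjusted p = 0.654), and it was 0.26 without replicate 1 (adjusted p = 0.109) and -0.017 without replicate 2.

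TAT1, which lies next to BAP2 in the genome and encodes a tyrosine transporter that also carries other amino acids, read 974, 955 and 883 in wild type and 890, 817 and 767 in H2B K123R. Mutant replicates 2 and 3 were below all wild-type values, and replicate 1 was just above the lowest of them. Its log2 difference was -0.18 ± 0.09 (limma adjusted p = 0.251). TAT2, the high-affinity tryptophan and tyrosine permease, read 445, 442 and 472 in wild type and 117.9, 386 and 412 in the mutant. All mutant values were lower, but replicate 1 lay far below the other mutant cultures. The log2 difference of -0.72 ± 0.43 did not pass (adjusted p = 0.349) and was -0.18 without replicate 1 (adjusted p = 0.210).

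HIP1, the high-affinity histidine permease gene, showed the same split. It read 914, 819 and 927 in wild type and 254, 724 and 754 in H2B K123R. All mutant values were below all wild-type values, with replicate 1 again far below its group. The log2 difference of -0.75 ± 0.39 did not pass (limma adjusted p = 0.290) and was -0.26 ± 0.08 without replicate 1 (adjusted p = 0.102). CAN1, the arginine permease whose loss gives canavanine resistance, read 564, 533 and 534 in wild type and 539, 564 and 579 in the mutant. The groups overlapped and were nearly level, with a log2 difference of 0.04 (95% confidence interval -0.14 to 0.23; adjusted p = 0.765), which turned to -0.031 after quantile normalization and -0.075 after cyclic loess.

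**Figure D2:**
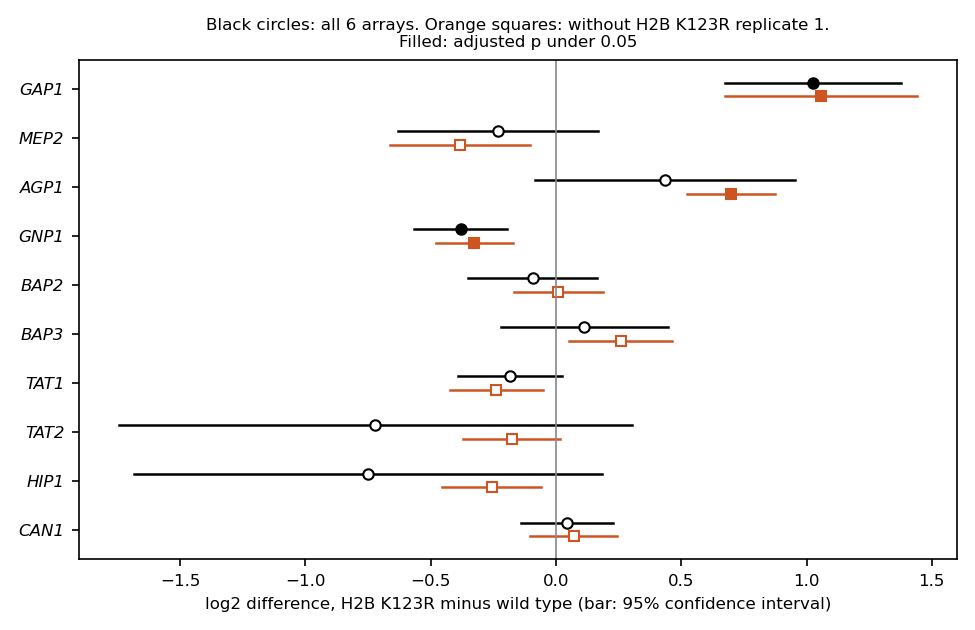
Log2 difference between H2B K123R and wild type (x axis) for each permease gene, with its 95% confidence interval, on all 6 arrays (black circles) and without H2B K123R replicate 1 (orange squares); filled symbols have an adjusted p under 0.05. GAP1 and GNP1 are filled in both fits and AGP1 only without replicate 1, while the wide intervals of TAT2 and HIP1 narrow and their differences shrink to -0.18 and -0.26.

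The low values on mutant replicate 1 were not shared by all permease genes. On the log2 scale this array was below the mean of the other mutant arrays by more than 1 for TAT2 (-1.63) and HIP1 (-1.48) and gave -0.79 for AGP1, while it was at -0.10 for GAP1, -0.16 for GNP1 and -0.08 for CAN1 and above them for TAT1 (0.17) and MEP2 (0.46). Of the 6265 probe sets with a mean signal of at least 50, 3.40% lay as low or lower than TAT2 on this measure and 3.77% as low or lower than HIP1. A few genes of the related lists were also low there, while most were not. PTR2, the di- and tripeptide transporter and a further Stp1 and Stp2 target, read 310 on this array and 1596 to 2610 on the other 5. SHR3, the endoplasmic reticulum chaperone that amino acid permeases need to reach the cell surface, read 1623 against 3958 to 4445. PTR2 and SHR3 were singled out after their values were seen, and each was the only gene of its list below -0.75 on this measure. The actin and YER022W control ratios given above were highest on this array, and that of YER148W was not; their part in these low values was not tested.

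**Figure D3:**
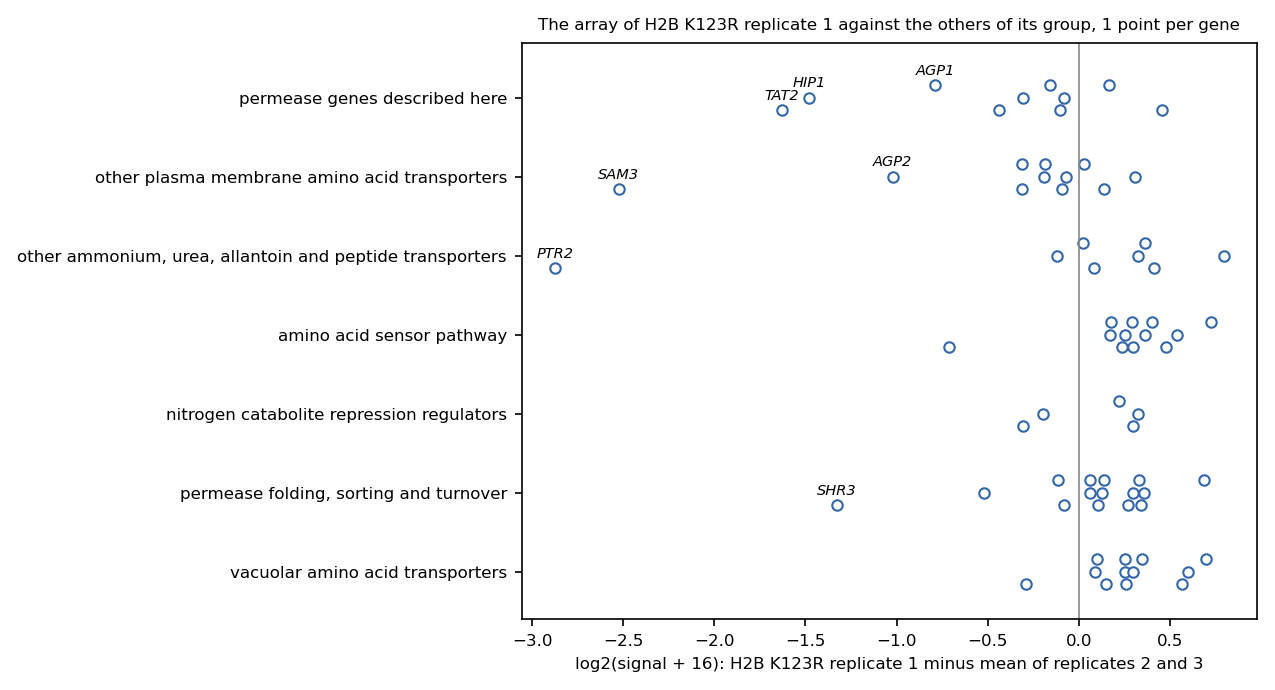
Log2(signal + 16) on the array of H2B K123R replicate 1 minus the mean of replicates 2 and 3 (x axis), 1 point per gene, for the permease genes and 6 lists of related genes; genes under -0.75 are named. TAT2, HIP1 and AGP1 lie to the left with SAM3, AGP2, PTR2 and SHR3, and most other genes lie between -0.5 and 0.8. The probe sets of SAM3 disagreed on replicate 1. Its brightest, drawn here, read 156 there and 1109 and 853 on mutant replicates 2 and 3. Another read 384 there and 351 and 383 on those replicates. AGP2 was dim, at 8.90, 18.8 and 13.0 in wild type and 1.13, 28.9 and 10.9 in H2B K123R.

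Responses of permease genes were compared within each array in 6 pairs. AGP1 minus GNP1, the paralogues, was -1.77, -1.76 and -1.75 log2 units in wild type and -1.37, -0.76 and -0.71 in H2B K123R. All 3 mutant arrays were above all wild-type arrays. On mutant replicate 1 this came from GNP1, at -0.49 from its wild-type mean, while AGP1 was at -0.09. The shift was 0.82 (two-sided exact permutation p = 0.1, the smallest that 3 against 3 allows; adjusted p = 0.3 over the 6 pairs) and 1.02 without replicate 1. GAP1 minus MEP2 was 1.47, 1.05 and 1.33 in wild type and 2.17, 2.50 and 2.95 in the mutant. Again no arrays overlapped, with a shift of 1.25 (exact permutation p = 0.1, adjusted p = 0.3). On mutant replicate 1 this came from GAP1, at 0.96 from its wild-type mean, while MEP2 was at 0.08. MEP2 is dim, and pseudocounts of 1 and 64 gave shifts of 1.38 and 1.00.

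The other 4 pairs overlapped between the groups. BAP2 minus BAP3 shifted by -0.21 (exact permutation p = 0.2) and GAP1 minus AGP1 by 0.59 (exact permutation p = 0.2). BAP2 minus its neighbour TAT1 shifted by 0.09 (exact permutation p = 0.7). TAT1 minus TAT2 shifted by 0.54 (exact permutation p = 0.9), a value that rests on mutant replicate 1 and was -0.061 without it. With 3 arrays a group, none of the 6 pair contrasts could have passed.

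**Figure D4:**
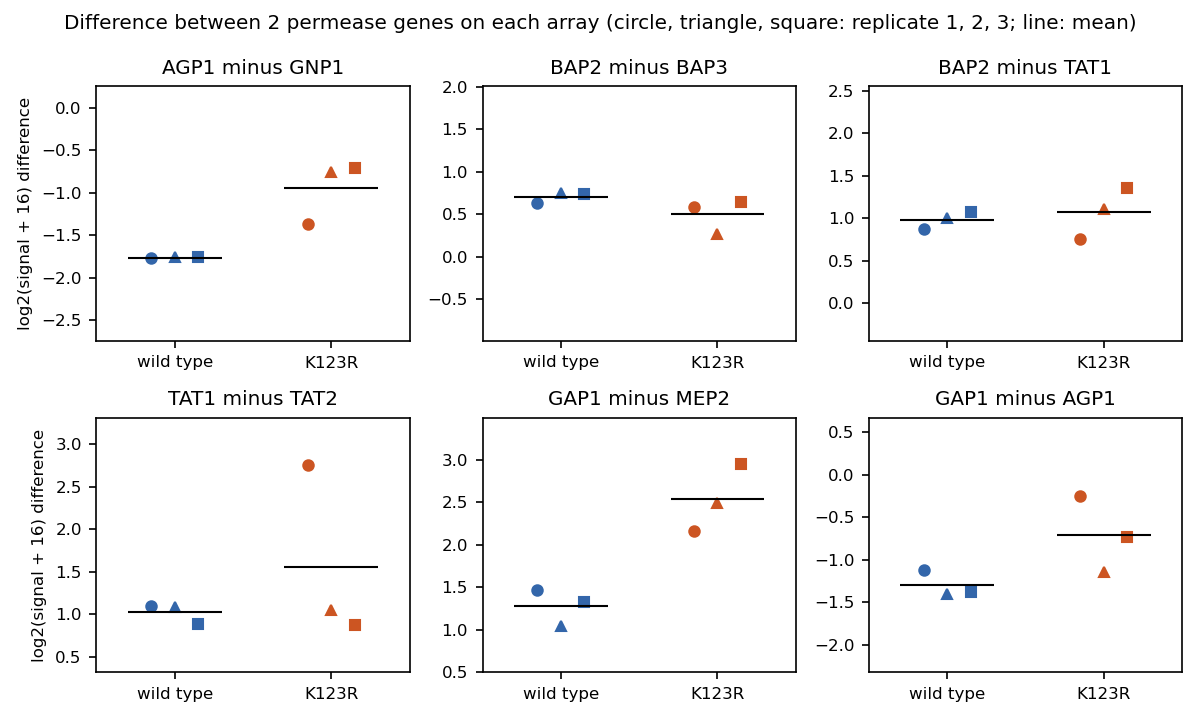
Difference in log2(signal + 16) between 2 permease genes on each array (y axis, each panel spanning the same 3 log2 units), wild type in blue and H2B K123R in orange, with the group means as lines. AGP1 minus GNP1 and GAP1 minus MEP2 separate the groups on all arrays, and in TAT1 minus TAT2 a single mutant array, replicate 1, stands at 2.76.

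Over all genes, each counted by its brightest probe set, 6.06% rose and 2.92% fell. An unadjusted p under 0.05 was found for 30.7% of them and a positive log2 difference for 60.4%. Without mutant replicate 1, 8.26% rose, 6.10% fell and the median log2 difference over all genes was 0.03. Of 11 other plasma membrane amino acid transporters, 1 rose and 1 fell, with a median log2 difference of -0.06. Without replicate 1 the median was 0.10 and 2 rose, the second being MUP3, a low-affinity methionine permease gene (59.1 ± 3.24 to 91.6 ± 6.61 on all arrays, limma adjusted p = 0.0562, and 0.0488 without replicate 1). ALP1, a basic amino acid permease gene related to CAN1, rose 1.98-fold. It read 35.8, 33.9 and 44.0 in wild type and 107, 95.6 and 71.5 in H2B K123R (log2 difference 0.98 ± 0.17, limma adjusted p = 0.0264). LYP1, the lysine permease gene that lies close to ALP1 with 1 annotated gene between them, read 1589 and 1435 on average and did not pass (adjusted p = 0.333). DIP5, the permease for glutamate and aspartate, fell 1.49-fold. It read 1277, 1274 and 1181 in wild type and 716, 968 and 822 in the mutant (log2 difference -0.58 ± 0.12, adjusted p = 0.0397). For both genes no mutant array overlapped a wild-type array. ALP1 kept its call only without mutant replicate 1 (adjusted p over single arrays left out 0.0245 to 0.124), and DIP5 without mutant replicate 1 or 2 (0.0289 to 0.157). Without a variance trend the adjusted p of DIP5 was 0.0515. With the replicate number as a block in the test, neither ALP1 nor DIP5 passed (limma adjusted p = 0.0651 and 0.0624). The 5 probe sets of SAM3, the S-adenosylmethionine permease gene, disagreed: the brightest did not pass (adjusted p = 0.475) and the dimmest, at means of 23.8 and 4.11, did (adjusted p = 0.0209), so no direction is given.

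Of 8 further transporters of ammonium, urea, allantoin and peptides, none passed limma's test. An unadjusted p under 0.05 was found for 2 of the 8, near the 30.7% of all genes. The smallest p belonged to ATO3, a gene of a putative ammonia export protein, at 1120 and 761 on average (log2 difference -0.56, adjusted p = 0.0697). It passed without mutant replicate 1 (log2 difference -0.68, adjusted p = 0.0233). The other ammonium permease genes, MEP1 and MEP3, had log2 differences of 0.12 and 0.10 and adjusted p of 0.625 and 0.532.

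Of 12 genes of the amino acid sensor pathway 2 rose and none fell on all arrays, with a median log2 difference of 0.19. Over all genes 6.06% rose and 2.92% fell, and the median was 0.08. Without mutant replicate 1 the median of the list was 0.08, 1 rose, STP1, and 1 fell, YCK2, a casein kinase gene. In that fit 8.26% of all genes rose and 6.10% fell, and the median over all genes was 0.03. YCK2 read 406, 395 and 386.6 in wild type and 386.5, 304 and 319 in H2B K123R. Mutant replicate 1 was thus level with the lowest wild-type value, and replicates 2 and 3 were lower. Its limma adjusted p was 0.258 on all arrays and 0.0479 without replicate 1. STP1, one of the activators of the permease genes, read 250, 286 and 314 in wild type and 504, 390 and 452 in H2B K123R, a rise of 1.55-fold (limma adjusted p = 0.0410). GRR1, the F-box protein of a ubiquitin ligase needed for amino acid signalling and for glucose sensing, read 315, 287 and 244 in wild type and 501, 379 and 471 in the mutant (1.56-fold, adjusted p = 0.0492; not called without replicate 1, adjusted p = 0.0561, without a variance trend, 0.0541, or with a pseudocount of 64, 0.05002). The mutant arrays were above all wild-type arrays for both genes. The paralogous activator STP2 (208 and 250 on average, adjusted p = 0.364) and the sensor gene SSY1 (adjusted p = 0.615) did not pass. Stp1 and Stp2 are activated by protein cleavage, which arrays do not measure.

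Of 5 regulators of nitrogen catabolite repression, GLN3 rose, where 6.06% of all genes did. The median log2 difference was 0.23 with all 5 values positive, as were 60.4% over all genes. GLN3, a GATA activator, read 61.2, 52.5 and 62.6 in wild type and 111, 89.6 and 96.6 in H2B K123R. All mutant arrays were higher, and the rise was 1.54-fold (log2 difference 0.62 ± 0.14, limma adjusted p = 0.0471). GAT1, the other activator, read 277, 328 and 326 against 311, 380 and 394 and did not pass (adjusted p = 0.364). Its groups overlapped through mutant replicate 1. With the replicate number as a block in the test, STP1, GRR1 and GLN3 did not pass (limma adjusted p = 0.0774, 0.0678 and 0.0761). The calls of STP1 and GLN3 were lost without any single wild-type array or mutant replicate 3, as was that of GRR1, and that of GLN3 also without mutant replicate 2, with adjusted p up to 0.149, 0.184 and 0.180 for STP1, GLN3 and GRR1.

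None of 15 genes of permease folding, sorting and turnover passed limma's test, with 5 of 15 at an unadjusted p under 0.05, near the 30.7% of all genes, and a median log2 difference of 0.12. Without replicate 1, CSR2, an arrestin-like adaptor gene, passed (adjusted p = 0.0334) on the probe set that stands for it here, but its 6 probe sets differed in sign on all arrays. The smallest p was that of BUL1, an adaptor of the ubiquitin ligase Rsp5 that directs Gap1 to the vacuole, at 343 and 465 on average (log2 difference 0.42, adjusted p = 0.0542). Its mutant arrays were all above its wild-type arrays. None of 12 measured vacuolar amino acid transporters passed either, with 1 of 12 at an unadjusted p under 0.05, below the share of all genes, and a median of 0.07. This was ATG22, a vacuolar amino acid exporter gene, at 188 and 326 on average (adjusted p = 0.101).

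**Figure D5:**
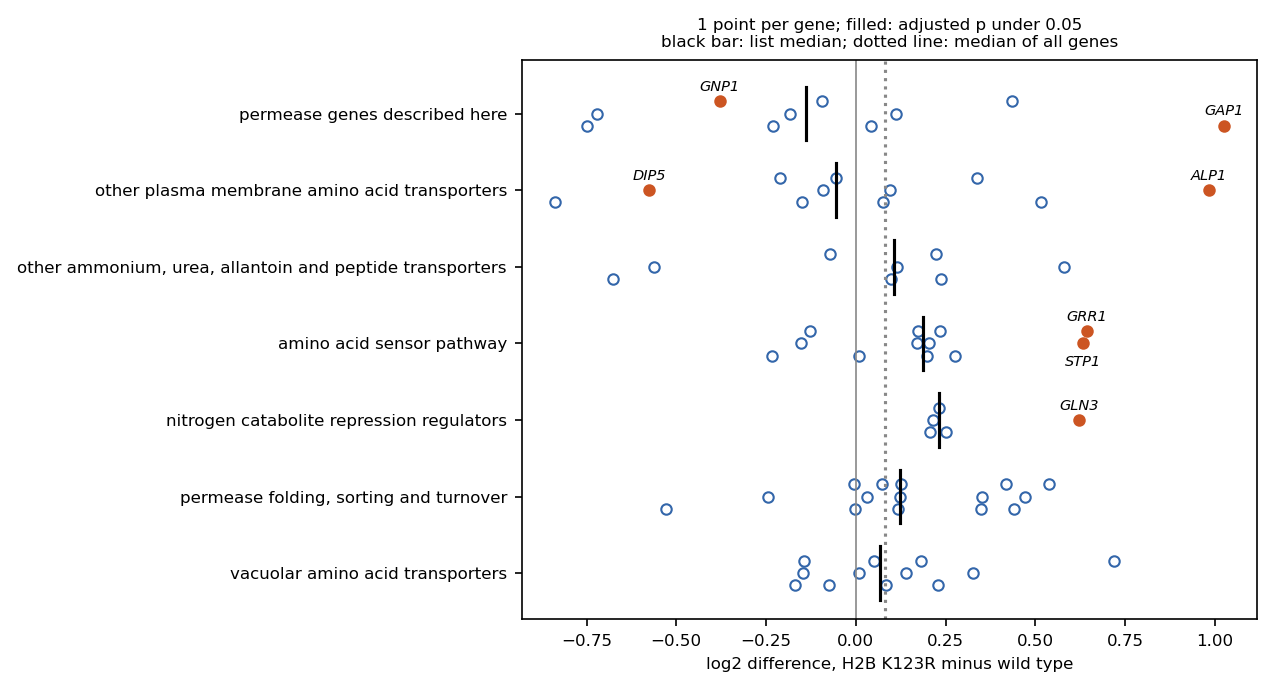
Log2 difference between H2B K123R and wild type (x axis) of each gene of the permease group and of 6 lists of related transporters and regulators; filled points have an adjusted p under 0.05 and are named, bars are list medians and the dotted line is the median of all genes, 0.08. GAP1 and ALP1 are the points farthest to the right. The sensor pathway and nitrogen catabolite repression lists have the highest medians, 0.19 and 0.23. Without mutant replicate 1 the sensor pathway median is 0.08, below 4 of the other lists, and the median of all genes is 0.03.

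Among 4890 other genes with a mean signal of at least 50, the patterns over the 6 arrays most like that of GAP1 were those of ARP3, an actin-related protein gene (Pearson r = 0.997), COX26, a cytochrome c oxidase subunit gene (0.994), and TAF5, a subunit gene of TFIID and SAGA (0.992). Their log2 differences were 0.57, 0.69 and 0.31. ARP3 and COX26 passed (limma adjusted p = 0.0188 and 0.0339) and TAF5 did not (0.0840). Those most like GNP1 were VTC1, a vacuolar transporter chaperone gene (r = 0.9995), OTU1, a deubiquitinase gene (0.994), and MRS4, a mitochondrial iron transporter gene (0.993), with log2 differences of -0.15, -0.33 and -0.56. Of these, MRS4 passed (limma adjusted p = 0.0490), and VTC1 (0.187) and OTU1 (0.0908) did not. All these correlations describe 6 arrays that share their group difference, and they were picked as the highest among 4890 genes.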

How the data were processed

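RNA of 3 wild-type and 3 H2B K123R cultures was hybridised to Affymetrix S98 arrays, 1 per culture, per the labels' protocols. The deposited values are intensity values on a linear scale, already scaled by the authors: with 2% trimmed from either end, the array means lay between 500.4 and 500.5. What software summarized the probes was not given in the sources used here, nor were detection calls used. Precision is limited by the number of arrays.

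Of 9335 probe sets, 60 controls were left out and 9275 tested. The platform annotation named 1 gene for 6504 of them, several for 328 and none for 2443, giving 5656 genes; no symbol changed against the gene table of assembly R64, which also gave the gene order. No coordinates are printed because the build behind the array is unknown. A gene with several probe sets was represented by its brightest, by the mean over the 6 arrays; each of the 10 permease genes had 1, of the type not marked as shared between genes.

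Signals were taken as log2(signal + 16). Array medians differed by 0.0924, under the limit of 0.5 set for a further normalization. Groups were compared with limma 3.58.1 in R 4.3.3 (two-sided, empirical Bayes moderation with a trend in the variance). P-values were adjusted by Benjamini-Hochberg over 9275 probe sets, with a threshold of 0.05. The fit was also run on simulated data with independent noise and no deviating array, which cannot show how H2B K123R replicate 1 affects it. Pairs of genes were compared by exact permutation over arrays. Alternatives were pseudocounts of 1 and 64, quantile and cyclic loess normalization, a mean signal of at least 50, a replicate block, array weights, no variance trend, the mean of a gene's probe sets and each array left out.

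All 10 permease genes were named. Of each list, the genes that passed were named or else the one with the smallest p, and for the largest called rise and fall the 3 genes with the highest correlation. PTR2, SHR3, MUP3, YCK2, CSR2, SAM3, AGP2, LYP1, STP2, SSY1, GAT1, MEP1 and MEP3 were picked for mention with their values in view. The permease genes and the lists were chosen with earlier results of these data known.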

Additional observations from a re-analysis of the deposited data

How the results depend on the processing

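GAP1 kept its direction in all 15 alternatives and passed in 11 of them (log2 difference 0.87 to 1.23, limma adjusted p 0.000722 to 0.103), and GNP1 passed in 9 (-0.44 to -0.33, adjusted p 0.00279 to 0.175). AGP1 passed in 2, without mutant replicate 1 and with array weights (adjusted p 0.00357 to 0.506 over all 15). TAT1 and MEP2 passed with array weights alone. With each array left out in turn, the permease genes that rose numbered 0 to 2 and those that fell 0 to 1, and probe sets passing overall numbered 22 to 1023. The lists gave 0 to 2 calls for the sensor pathway, 0 to 3 for other amino acid transporters, 0 to 1 for nitrogen repression regulators, for ammonium and peptide transporters and for permease turnover, and 0 for vacuolar transporters.

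Array weights, of which H2B K123R replicate 1 had 0.181 and replicate 3 had 4.52, gave 2885 probe sets in place of 620, 2 permease genes up and 3 down, and 4, 5, 2, 2, 3 and 2 calls in the same order of lists. With the replicate block 307 probe sets passed, no permease gene fell (GNP1 adjusted p = 0.0720), and the sensor, amino acid transporter and nitrogen repression lists had 0 calls (adjusted p 0.0624 to 0.0774 for ALP1, DIP5, STP1, GRR1 and GLN3). Deviations of same-numbered arrays correlated at 0.32, 0.38 and 0.05, and each array correlated best with its own number. The main test did not take the numbers as pairs, and whether they mark arrays handled together was not tested. Without the variance trend no permease gene fell (0; GNP1 adjusted p = 0.0617) and the sensor list had 1 call, as it had with a pseudocount of 64. Quantile normalization and cyclic loess each gave 1 ammonium and peptide transporter, and the limit on dim probe sets 1 turnover gene.

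Signs turned for BAP2 with array weights (0.053) and without mutant replicate 1 (0.0095), for BAP3 without mutant replicate 2 (-0.017), and for CAN1 after quantile normalization (-0.031) and cyclic loess (-0.075); none of these values passed. With single arrays left out BAP2 ranged from -0.18 to 0.0095 and BAP3 from -0.017 to 0.26. In the pairs, BAP2 minus TAT1 turned to -0.049 without mutant replicate 3 (range to 0.25) and TAT1 minus TAT2 to -0.061 without replicate 1 (range to 0.88). The causes were not tested. Alternatives for the lists, their genes and the pairs were chosen after the data were seen.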
